A study of Mus musculus with 9 samples.

Results

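The skeletal muscle genes described here are 34 genes of the contractile apparatus, calcium release, energy supply and transcriptional control of skeletal muscle fibres, out of 19698 genes named on the arrays. They were taken as a fixed list of symbols, each probe was named through its RefSeq accession, and each gene was represented by its brightest probe, that is the probe with the highest mean log2 intensity over all arrays. All 34 had a probe. RNA of lung tissue from C57BL/6 mice, all male and 10 weeks old per the labels, was hybridised to 9 one-colour Agilent arrays. The Control group holds 4 arrays from mice that were not irradiated. The Irradiated group holds 5 arrays of tissue from the left lung after a single dose of radiation, given under zoletil and rompun anaesthesia. The labels give no dose, time or region of the lung for any array, so none was used. According to the methods, RNA from 3 repeats was pooled before labelling, so the array is the replicate and p-values measure only the spread between these arrays, which may be technical in part.

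Skeletal muscle contracts when myosin of the thick filament pulls on actin of the thin filament, and calcium released at the triad starts the cycle by binding troponin. Fast and slow fibres use different forms of myosin, troponin and myosin-binding protein, which makes these genes markers of fibre type. Skeletal muscle forms the diaphragm, the chest wall and, in the mouse, much of the wall of the oesophagus, while the walls of the air spaces hold none. Mouse lung does contain cardiac muscle in the walls of its larger pulmonary veins, and heart and skeletal muscle share part of their genes.

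All values are log2 intensities after quantile normalization, and the values of a gene are listed in the order of the array numbers. Levels of different genes are not compared, because each probe binds with its own efficiency. Markers of lung were bright on every array. Sftpc, the surfactant protein of type II alveolar cells, lay between 19.36 and 19.43, and Sftpb between 17.67 and 18.21. Scgb1a1, the secretory protein of club cells, lay between 19.08 and 19.19, and Ager, of type I alveolar cells, between 14.36 and 15.60. The share of probes well above background was 87.2% on Control 3 and 89.1% on Irradiated 4, against 72.2% to 78.9% on the other 7 arrays, and no spot was saturated. All 34 genes were well above background on Control 3, 32 on Irradiated 4 and between 19 and 27 on each of the others.

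The start regions of 4 of these genes are shown because the genes include 3 neighbouring myosin genes that stood far apart on Control 3 or Irradiated 1, and the main skeletal actin. Each line gives the 250 bases before the transcription start, 5′ to 3′, from RefSeq on the mouse assembly GRCm38.p6. The regions lie at chr11:67199852-67200101, plus strand (Myh1), chr11:67237562-67237811, plus strand (Myh4), chr11:67276874-67277123, plus strand (Myh8) and chr8:123894776-123895025, minus strand (Acta1). Capitals mark a match to the MEF2 motif in the 3 myosin genes and a match to the CArG box in Myh4 and Acta1.
Myh1: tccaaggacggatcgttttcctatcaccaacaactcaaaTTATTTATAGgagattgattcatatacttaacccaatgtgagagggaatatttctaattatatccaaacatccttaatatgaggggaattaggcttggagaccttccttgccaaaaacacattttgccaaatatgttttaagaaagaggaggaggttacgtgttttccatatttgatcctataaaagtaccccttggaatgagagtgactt
Myh4: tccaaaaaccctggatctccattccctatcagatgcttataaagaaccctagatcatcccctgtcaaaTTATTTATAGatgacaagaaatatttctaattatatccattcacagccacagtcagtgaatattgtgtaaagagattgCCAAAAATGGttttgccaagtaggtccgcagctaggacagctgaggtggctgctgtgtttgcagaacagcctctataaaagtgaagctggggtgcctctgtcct
Myh8: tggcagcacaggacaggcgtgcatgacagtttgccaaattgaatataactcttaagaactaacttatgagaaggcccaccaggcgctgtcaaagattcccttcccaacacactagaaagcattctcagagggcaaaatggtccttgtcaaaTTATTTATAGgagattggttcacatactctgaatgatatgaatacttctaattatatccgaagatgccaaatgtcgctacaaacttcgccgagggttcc
Acta1: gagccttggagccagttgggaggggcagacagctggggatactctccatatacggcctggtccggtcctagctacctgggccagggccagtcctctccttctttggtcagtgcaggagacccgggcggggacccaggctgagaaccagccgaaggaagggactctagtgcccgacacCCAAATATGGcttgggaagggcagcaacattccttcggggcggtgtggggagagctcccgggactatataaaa

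A start region was found for 22 of the 34 genes in a table of 27025 mouse promoters, which did not cover every chromosome. The MEF2 motif, bound by factors that switch on muscle genes, was present in 6 of the 22 (Myh1, Myh4, Myh8, Pgam2, Pvalb and Xirp2), against 3.01% of all promoters. The 3 myosin genes carry it in the same letters. The CArG box, bound by serum response factor, was found in 2 of 22, against 1.4% of all, and the TATA box TATAAA in 7 of 22, against 13.0%. The MEF2 matches of the 3 myosin genes themselves hold TATAAA on the opposite strand, so these searches overlap. The E-box CANNTG, the motif of the MyoD family, was found in 19 of 22, but 66.0% of all promoters hold one. Both strands were searched throughout, and the matches describe letters in these windows only.

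The first pattern among the skeletal muscle genes lay within the control group. On Control 3, 28 of the 34 genes had their highest value of the 9 arrays, compared with 11.3% of all genes. 19 of the 34 were at least 4-fold above the mean of Control 1, 2 and 4, compared with 0.809% of all genes. At 2-fold there were 23 of 34 against 2.23%, and at 16-fold 9 of 34 against 0.285%. None of the 34 was 4-fold or more below that mean, against 0.636%. The median difference was 2.49 on the log2 scale over the 34 genes and -0.09 over all genes. Control 3 was singled out with its values known, so these figures are a description and carry no test. In bulk tissue, more muscle cells and more RNA per muscle cell cannot be told apart.

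**Figure D1:**
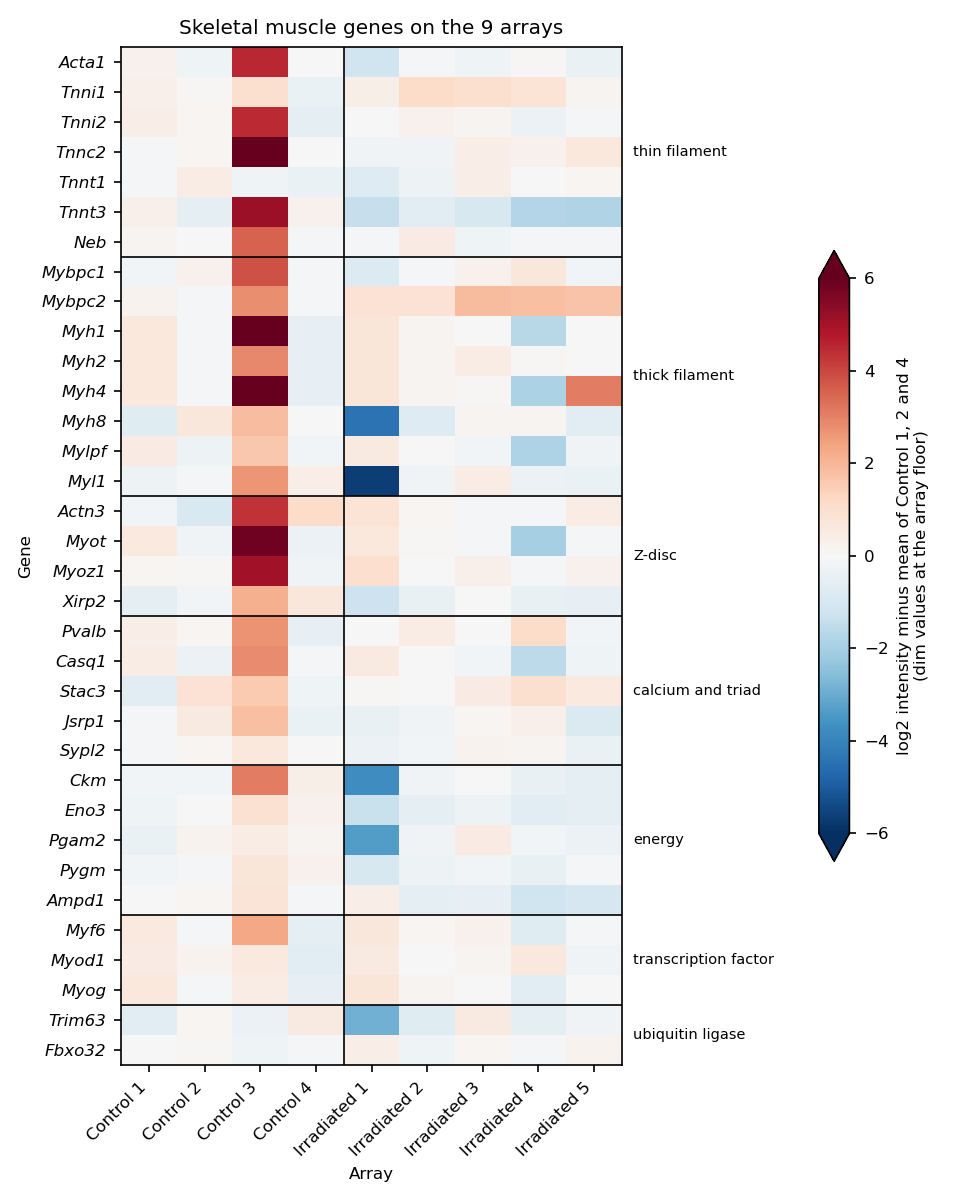
Difference of each skeletal muscle gene (rows, grouped by role) from the mean of Control 1, 2 and 4 on each of the 9 arrays (columns), in log2 intensity, with dim values set to the array's floor. Red is higher and blue is lower, with colours ending at 6 in either direction. The Control 3 column is red for most genes, and Irradiated 1 is dark blue for Myh8, Myl1, Ckm, Pgam2 and Trim63.

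A gene that was not well above background on any of Control 1, 2 and 4 has only a bound there. For it the control value was taken on each array as the higher of its own signal and the lowest signal well above background, and the fold is given as at least that size. The same was done for genes not well above background on Irradiated 1. This concerns Myh1, Myh2, Myh4, Myot, Myf6 and Myog. For Mylpf, Actn3, Casq1 and Myod1, 1 of these 3 controls was well above background, and for Tnni1 2 of 3. Their dim controls were set to the same level in the counts and medians on Control 3, which lowers the fold, so both folds are given for these genes. With all values as measured, 20 of 34 genes passed 4-fold. The count of 28 genes highest on Control 3 used values as measured, and with dim values at the floor it was 27, without Myog, against 9.93% of all genes.

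In the thin filament, 5 of 7 genes were at least 4-fold higher on Control 3, with a median difference of 4.48. Acta1, the main actin of skeletal muscle, measured 10.42, 9.89, 14.67 and 10.14 on the control arrays and 8.96, 10.04, 9.88, 10.24 and 9.74 on the irradiated arrays. Control 3 was the highest array and the other 8 lay within 8.96 to 10.42, so that Control 3 was 23.0-fold above the other controls, which averaged 10.15 ± 0.263 (SD, n = 3). Tnnc2, the calcium-binding troponin C of fast fibres, had values of 7.39, 7.63, 15.63 and 7.49 on the control arrays and 7.28, 7.27, 7.90, 7.78 and 8.13 on the irradiated arrays. It was 280-fold higher on Control 3 than on the other controls, which averaged 7.50 ± 0.122 (SD, n = 3), and the other 8 arrays lay within 7.27 to 8.13. Neb, the giant protein that runs along the thin filament, was at 6.89, 6.71, 10.26 and 6.62 on the control arrays and 6.61, 7.21, 6.48, 6.63 and 6.63 on the irradiated arrays. Its Control 3 value was 11.4-fold above the other controls, and a second probe of Neb was also higher there, by 3.93 on the log2 scale.

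The troponin subunits I and T are encoded by separate genes in fast and slow fibres and give 2 direct comparisons of fibre type. Tnni2, fast troponin I, read 11.46, 11.16, 15.51 and 10.49 on the control arrays and 11.00, 11.31, 11.19, 10.69 and 10.97 on the irradiated arrays. The Control 3 array stood alone, 22.2-fold above the other controls. For Tnni1, slow troponin I, the intensities were 4.69, 4.90, 5.75 and 4.42 on the control arrays and 5.17, 5.90, 5.76, 5.62 and 4.98 on the irradiated arrays. Control 3 was 2.12-fold above the other controls as measured, or 1.92-fold with the dim control at its bound, and was exceeded by Irradiated 2 and 3.

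Tnnt3, fast troponin T, which ties the complex to tropomyosin, gave 9.46, 8.56, 14.30 and 9.42 on the control arrays and 7.79, 8.47, 8.18, 7.37 and 7.36 on the irradiated arrays. It was 35.5-fold higher on Control 3 than on the other controls, and all 5 irradiated arrays lay below all 4 controls. In its second probe the groups did not overlap either, but Control 3, at 11.43, was 8.01-fold above the other controls, so the size of the difference depends on the probe. Tnnt1, slow troponin T, gave 10.67, 11.15, 10.45 and 10.34 on the control arrays and 9.95, 10.42, 11.12, 10.73 and 10.82 on the irradiated arrays. Control 3 lay inside the range of the other arrays, with a difference of -0.27 from the other controls.

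In the thick filament, 6 of 8 genes were at least 4-fold higher on Control 3 and all 8 had their highest value there, with a median difference of 2.85. Mybpc2, the fast form of myosin-binding protein C, was measured at 8.15, 7.83, 10.74 and 7.84 on the control arrays and 8.80, 8.82, 9.83, 9.76 and 9.64 on the irradiated arrays. Control 3 was 6.96-fold above the other controls, and Control 1, 2 and 4 were the lowest arrays of the 9. Mybpc1, the slow form, was measured at 6.68, 7.08, 10.67 and 6.75 on the control arrays and 6.00, 6.73, 7.08, 7.52 and 6.69 on the irradiated arrays. It was 14.3-fold above the other controls on Control 3, the largest difference of the slow genes on the list.

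The myosin heavy chains Myh2, Myh1, Myh4 and Myh8 follow one another on chromosome 11 and are near-identical in long stretches, so a probe of one may also read another. Myh4, the heavy chain of the fastest fibres, was at 12.33 on Control 3, 7.52 on Irradiated 5 and 2.01 to 4.54 on the other 7 arrays. Control 3 was at least 235-fold above the other controls, and Irradiated 5 was the only other array on which Myh4 was well above background. Myh1, the heavy chain of type IIx fibres, was at 13.60 on Control 3 and within 2.40 to 3.91 on the other 8, a difference of at least 566-fold from the other controls. Both folds are lower bounds, so Myh1 and Myh4 are not ranked. Myh2, the heavy chain of type IIa fibres, was at 7.36 on Control 3 and within 3.28 to 4.88 elsewhere, at least 7.46-fold above the other controls.

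Myh8, the perinatal heavy chain, was well above background on every array by its brightest probe. Its values were 13.13, 14.54, 15.72 and 13.89 on the control arrays and 9.42, 13.07, 13.99, 14.00 and 13.18 on the irradiated arrays. Control 3 was the highest array, 3.64-fold above the other controls and just outside the 4-fold limit, and Irradiated 1 was far below all others. A second probe of Myh8 was at 9.31 on Control 3, 6.29 to 6.85 on the other controls and 6.14 to 6.92 on Irradiated 2 to 5, and was not well above background on Irradiated 1. By that probe Control 3 was 6.36-fold above the other controls, so that the side of the 4-fold limit depends on the probe. Myl1, an essential light chain of fast myosin, had 10.60, 10.81, 13.57 and 11.32 on the control arrays and 5.28, 10.68, 11.37, 10.57 and 10.51 on the irradiated arrays. It was 6.33-fold higher on Control 3 and, like Myh8, lowest on Irradiated 1, where it was not well above background. Mylpf, the fast regulatory light chain, was at 6.24 on Control 3 and 1.87 to 4.68 on the others. It was 5.94-fold above the other controls as measured and 3.06-fold with the dim controls at their bound, so that its side of the 4-fold limit depends on the bound.

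The 4 genes of the Z-disc, which anchors the thin filaments, were all at least 4-fold higher on Control 3, with a median difference of 4.67. Myoz1, a calcineurin-binding protein of fast fibres, had intensities of 5.97, 5.93, 10.87 and 5.65 on the control arrays and 6.87, 5.83, 6.16, 5.75 and 6.10 on the irradiated arrays. Control 3 was 32.4-fold above the other controls, which averaged 5.85 ± 0.172 (SD, n = 3). Xirp2, an actin-binding repeat protein of skeletal and cardiac muscle, had 5.89, 6.23, 8.54 and 7.09 on the control arrays and 3.8, 5.97, 6.36, 5.96 and 5.90 on the irradiated arrays. Its Control 3 value was the highest, 4.40-fold above the other controls and just inside the limit, and its Irradiated 1 value was the lowest. Actn3, the alpha-actinin of fast fibres, was at 9.58 on Control 3 and 4.21 to 6.33 on the others. It was 23.2-fold higher as measured and 20.02-fold higher with the dim controls at their bound. Myot, which cross-links actin, was at 10.37 on Control 3 and 2.42 to 4.21 on the others, at least 56.8-fold higher and well above background on no other array.

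Of the 5 genes of calcium handling and the triad, 2 were at least 4-fold higher on Control 3, and all 5 had their highest value there. Pvalb, the calcium buffer of fast fibres, was at 8.39, 8.10, 10.69 and 7.52 on the control arrays and 8.03, 8.45, 8.02, 9.11 and 7.85 on the irradiated arrays. Control 3 was 6.44-fold above the other controls, and by its second probe, which was dim on the other controls, at least 14.7-fold. Casq1, the calcium-storing protein of the sarcoplasmic reticulum, was at 7.51 on Control 3 and 3.07 to 5.03 on the other arrays, 9.70-fold above the other controls as measured and 7.26-fold with the dim controls at their bound. Jsrp1, a junctional protein of the sarcoplasmic reticulum, was at 9.91, 10.59, 11.87 and 9.64 on the control arrays and 9.59, 9.85, 10.15, 10.37 and 9.18 on the irradiated arrays. It was 3.54-fold higher on Control 3. Stac3, which couples the voltage sensor to calcium release, was at 7.21, 8.75, 9.41 and 7.61 on the control arrays and 7.91, 7.85, 8.37, 8.84 and 8.42 on the irradiated arrays. Its difference was 2.93-fold, and Control 1 was the lowest array. Sypl2, a triad membrane protein, was at 6.13 on Control 3 and 4.57 to 5.73 on the others, a difference of 1.55-fold.

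Among the 5 genes of energy supply, Ckm alone passed 4-fold on Control 3, and the median difference was 0.75. Ckm, the creatine kinase of muscle, was at 12.01 on Control 3, 4.10 on Irradiated 1 and 8.36 to 9.27 on the other 7 arrays. Control 3 was 8.54-fold above the other controls. Eno3, the muscle enolase, was at 13.01, 13.33, 14.21 and 13.53 on the control arrays and 11.95, 12.69, 13.00, 12.63 and 12.73 on the irradiated arrays. Control 3 was the highest and 1.90-fold above the other controls, and every irradiated array was below every control, although Irradiated 3 and Control 1 nearly met. Pygm, which releases glucose units from glycogen in muscle, was at 10.94, 11.07, 11.87 and 11.36 on the control arrays and 10.16, 10.81, 10.96, 10.70 and 11.01 on the irradiated arrays. Its Control 3 value was 1.68-fold above the other controls, and its Irradiated 1 value was the lowest. Pgam2, the muscle phosphoglycerate mutase, was at 10.81, 11.42, 11.63 and 11.36 on the control arrays and 7.86, 10.99, 11.68, 11.02 and 10.85 on the irradiated arrays. The Control 3 value lay just below that of Irradiated 3, and Irradiated 1 stood far below the rest. Ampd1, the AMP deaminase of muscle, was at 7.55, 7.71, 8.32 and 7.45 on the control arrays and 7.96, 7.0, 7.08, 6.38 and 6.55 on the irradiated arrays. Control 3 was the highest array, 1.69-fold above the other controls.

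Of the 3 transcription factors of the MyoD family, 1 passed 4-fold on Control 3, and neither of the 2 ubiquitin ligases did. Myod1, the master regulator of myoblasts, was at 4.28, 4.81, 5.19 and 3.66 on the control arrays and 2.72, 4.15, 4.81, 5.23 and 4.05 on the irradiated arrays. It was well above background on 4 arrays, and Control 3 was 1.92-fold above the other controls as measured and 1.49-fold with the dim controls at their bound. Myf6, the MyoD-family factor of mature fibres, was at 4.42, 4.45, 6.81 and 2.75 on the control arrays and 3.92, 4.31, 4.76, 3.77 and 2.47 on the irradiated arrays. Control 3 was the highest, at least 4.96-fold above the other controls. Myog, which drives myoblast differentiation, was at 4.91 on Control 3 and 2.42 to 3.82 on the others, at least 1.37-fold higher. Trim63, a ubiquitin ligase of muscle wasting, was at 7.43, 8.19, 7.71 and 8.59 on the control arrays and 2.27, 7.36, 8.63, 7.50 and 7.87 on the irradiated arrays. Its Control 3 value lay inside the range of the other controls, and Irradiated 1 was the lowest by far. Fbxo32, the other ligase of muscle wasting, was at 8.47, 8.51, 8.17 and 8.33 on the control arrays and 8.82, 8.19, 8.58, 8.35 and 8.63 on the irradiated arrays. All 9 arrays lay within 8.17 to 8.82, and Control 3 was the lowest.

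**Figure D2:**
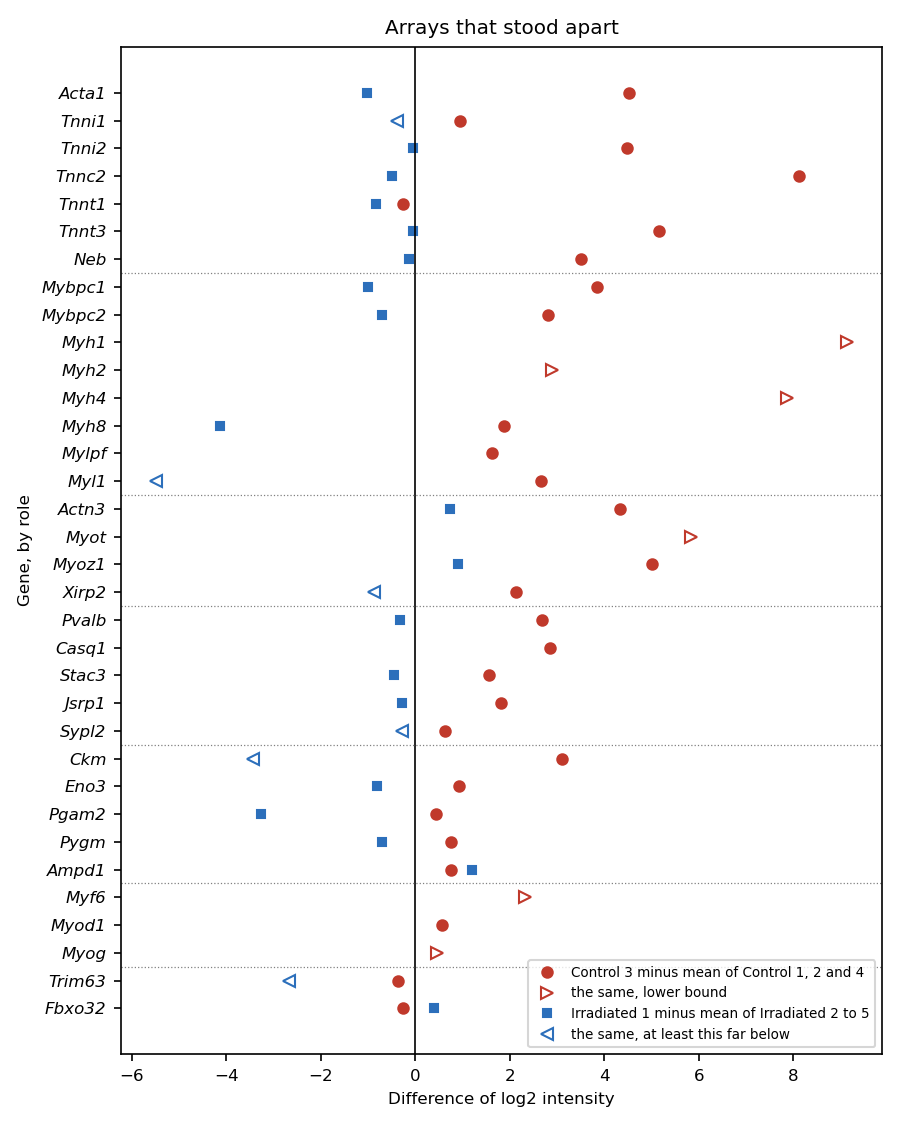
Control 3 minus the mean of Control 1, 2 and 4 (red) for each skeletal muscle gene, and Irradiated 1 minus the mean of Irradiated 2 to 5 (blue), in log2 intensity, with open triangles for bounds. No blue point is drawn for genes that were dim on Irradiated 1 and also on any other irradiated array. The red points reach at least 9.15 for Myh1, and the blue points lie far to the left for Myl1, Myh8, Ckm, Pgam2 and Trim63.

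Fast and slow fibre genes were not alike on Control 3. With dim values at their bound, the 12 fast genes, among them Tnni2, Tnnc2, Tnnt3, Mybpc2 and the fast myosins, were on average 4.73 higher on the log2 scale than on the other controls, with a median of 4.40 and a range from 1.61 to 9.15. Of these, 11 of 12 passed 4-fold and 12 of 12 were highest on Control 3. The 3 slow genes were on average 1.5 higher, with values of -0.27 for Tnnt1, 0.94 for Tnni1 and 3.84 for Mybpc1. The difference between fast and slow was thus 3.23, while the mean of the fast genes minus that of the slow genes had an SD of 0.37 over Control 1, 2 and 4. By array that quantity was -0.24, -0.91, 2.75 and -0.30 in the controls and -0.22, -0.63, -0.80, -1.38 and -0.24 in the irradiated arrays. Its zero depends on the probes, so only its change between arrays is of interest, and Control 3 lay above the other 8 arrays. Part of that change follows the floor for dim genes. The floor was 2.69 on Control 3, 2.55 on Irradiated 4 and 3.94 to 5.17 elsewhere, so small differences among the other arrays are not read. Genes are not replicates, 3 slow genes are few, and no test was made.

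**Figure D3:**
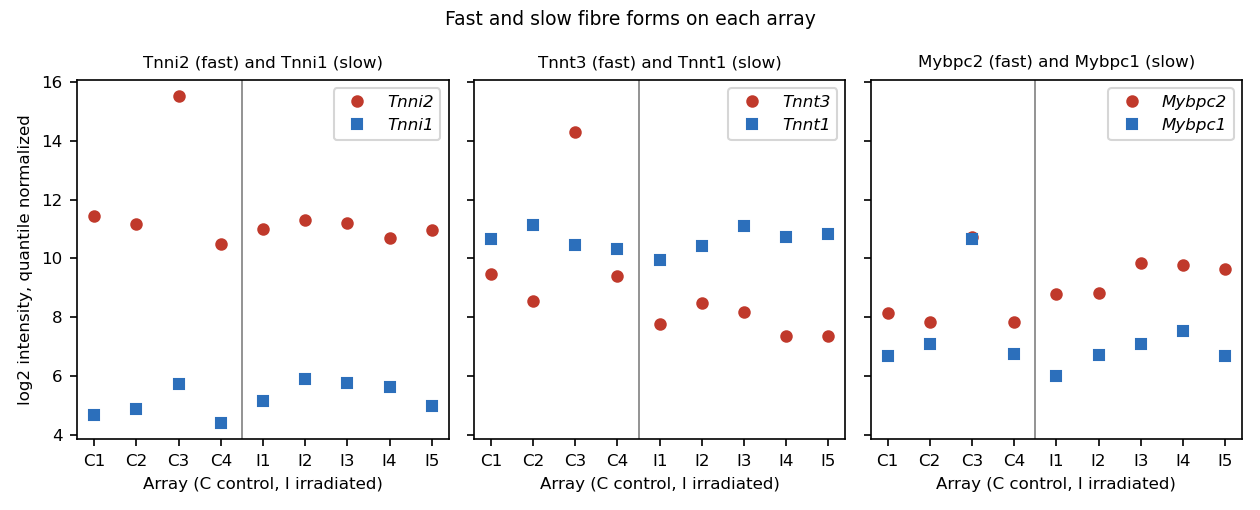
Values of 3 fast genes (red circles) and their slow counterparts (blue squares) on each control (C1 to C4) and irradiated (I1 to I5) array, in quantile-normalized log2 intensity, 1 point per array. The fast gene is highest on C3 in each panel. Of the slow genes only Mybpc1 is, and heights of the 2 genes in a panel are not to be compared.

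Slow fibres share several genes with the heart, so 8 of these were examined beside the list. Only Myl3, a ventricular and slow light chain, was at least 4-fold higher on Control 3, by 9.23-fold, and it measured 15.00 there and 6.94 to 12.69 on the other arrays. The median difference of the 8 was -0.15. Myh7, the slow and beta-cardiac heavy chain, was at 12.04 on Control 3 and 11.75 to 12.34 on the other controls. Of 33 further skeletal muscle genes found on the arrays, 20 had their highest value on Control 3 and 5 passed 4-fold, with a median difference of 0.75. None of 7 genes of satellite cells and myogenic precursors passed 4-fold or was highest on Control 3.

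Genes of other cell types were examined on Control 3 in the same way. Of 12 genes of stratified squamous epithelium, 9 were highest on Control 3 (8 with dim values at the floor) and 5 were at least 4-fold above the other controls: Krt4 by at least 264-fold, Sprr3 by at least 113-fold, Sprr1a by 12.1-fold, Krt5 by 11.5-fold and Krt13 by 9.30-fold. Krt6a and Ivl, at 4.27 each, were not higher there, and Trp63, the regulator of basal cells, was at 13.03 on Control 3 and 13.44 to 13.75 on the other controls. The summed intensity of this list was 40239 on Control 3, 14560 to 19753 on the other controls and 10977 to 16768 on the irradiated arrays. By values as measured, the 10 genes outside the muscle list with the largest excess of Control 3 over the other 8 arrays were Lce1d, Lce3a, Lce3c, Lce3f, Serpinb3a, Lce3b, Defb4, Lce1b, Crct1 and Lce1g, chiefly genes of the cornified envelope of such epithelium. Most of them were not well above background on the other arrays, so their order is not read. With dim values at the bound, 6 of the 10 remained and Krtdap, Lor, Krt4 and Calm4 took the other places. Over 12 other marker lists, with dim values at the floor, the mean difference on Control 3 lay between -1.27 for cartilage and bone and 0.44 for mesothelium. The floor was 2.69 on Control 3 and 3.94 to 5.11 on the other controls. A gene dim on every control therefore falls on Control 3 by the floor alone, as Myf5 did, by -1.76. The median of the cartilage and bone list was also -1.76, so its mean is not read as a tissue difference. The part of the epithelial genes in the muscle result was not tested.

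**Figure D4:**
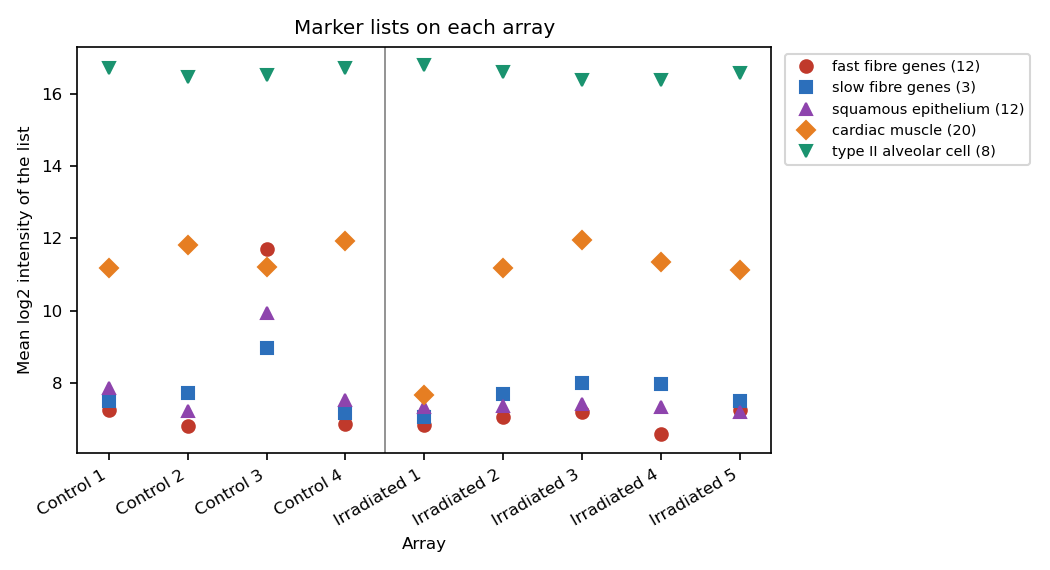
Mean log2 intensity of 5 gene lists (number of genes in parentheses) on each array, with dim values at the array's floor, 1 point per list and array. Fast fibre genes and squamous epithelium genes are highest on Control 3, cardiac muscle genes are lowest on Irradiated 1, and type II alveolar genes lie between 16.39 and 16.80 on all arrays. Heights of different lists are not to be compared.

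Control 3 and Irradiated 4 were the pair with the highest share of probes well above background and were neighbours by the edges of the scanner image. Between these 2 arrays, 31 of 34 genes were higher on Control 3 and 18 were at least 4-fold higher, while 51.6% of all genes were higher and 1.34% at least 4-fold higher. For the 8 genes with a pair of probes, both probes went the same way on Control 3.

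A second array stood apart in part of the list. On Irradiated 1, 5 of the 34 genes were at least 4-fold below the mean of Irradiated 2 to 5, compared with 0.727% of all genes, and 13 of 34 were the lowest of the 9 arrays, compared with 10.5%. These ranks used values as measured, and with dim values at the floor 11 of 34 were lowest, without Myod1 and Sypl2, against 8.09% of all genes. Myl1 was lower by at least 45.2-fold, Myh8 by 17.7-fold, Ckm by at least 10.8-fold, Pgam2 by 9.70-fold and Trim63 by at least 6.36-fold. The second probes of Myl1, Myh8 and Trim63 were dim on Irradiated 1 and gave bounds of at least 2.39-fold, 2.47-fold and 1.23-fold. Of the 5 genes, Myl1 and Ckm were also among the genes past 4-fold on Control 3. Tnnc2, Tnni2 and Tnnt3 on Irradiated 1 differed from the other irradiated arrays by -0.49, -0.04 and -0.06 on the log2 scale.

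Genes of cardiac muscle moved with them. Of 20 cardiac genes, 14 were at least 4-fold below the other irradiated arrays on Irradiated 1 and 17 were the lowest of the 9 arrays, with a median difference of -3.90. Myh6, the alpha-cardiac heavy chain, was at 7.33 on Irradiated 1 and 15.87 to 16.98 on the other 8 arrays. The summed intensity of the cardiac list was 21553 on Irradiated 1 and 236697 to 394502 on Irradiated 2 to 5. It was 257088 on Control 3 and 255392 to 439652 on the other controls. On Control 3 the same list had a median difference of -0.71 from the other controls, and 1 of the 20 genes, Myl3, passed 4-fold. Other lists were also low on Irradiated 1. Of the 33 further skeletal muscle genes, 6 were at least 4-fold below and 19 were lowest of the 9 arrays. Of the 8 slow fibre genes shared with heart, 5 were at least 4-fold below. Of 10 smooth muscle genes, 0 were 4-fold below and 8 were lowest, with a median difference of -0.42. Of 8 white fat genes, 1 was 4-fold below and 3 were lowest, with a median of -1.31. Of 6 brown fat genes, 0 were 4-fold below and 3 were lowest, with a median of -1.27. Of 8 type II and 5 type I alveolar genes, 0 were 4-fold below. The part of the cardiac genes and of these lists in the values of Myl1, Myh8, Ckm, Pgam2 and Trim63 was not tested.

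The comparison of the study's design, Irradiated against Control, was made with limma over all probes, with and without Control 3. With all 9 arrays, 0 of the 34 genes passed an adjusted p of 0.05, compared with 0.416% of all genes (0.152% lower and 0.264% higher in the irradiated arrays). Without Control 3, 0 of 34 passed, compared with 0.0254% (0.00508% lower and 0.0203% higher). At an unadjusted p under 0.05 there were 4 of 34 in each fit, against 12.3% and 10.6% of all genes. With all 9 arrays these were Eno3, Tnnt3, Pygm and Ampd1, all 4 lower, against 4.98% of all genes lower and 7.37% higher. Without Control 3 Tnnt3 and Eno3 were lower, 2 of 34 against 4.5%, and Mybpc2 and Tnni1 higher, 2 of 34 against 6.07%. The number of arrays limits the precision, and a gene that missed the threshold is not shown to be equal in the groups. Without Control 3 the number of probes called over the whole array was 5, against 131 with it, out of 39303.

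The size of the differences depended on Control 3. With it, 30 of 34 genes were lower in the irradiated arrays, with a median difference of -0.87, while the median over all genes was 0.0085 and 48.1% of all genes were lower. Without it, 23 of 34 were lower and 11 higher, with a median of -0.09 against 0.0068 over all genes, of which 48.7% were lower. Lists of other tissues differed in size and direction in the same fits. Of 9 cartilage and bone genes, 7 were lower with Control 3 and 8 without it, with medians of -0.50 and -0.67. Among them, 1 passed the adjusted threshold with all 9 arrays and 0 without Control 3. Of 6 brown fat genes, 4 were lower with Control 3 and 5 without it, with medians of -0.56 and -0.55. Of 5 type I alveolar genes none was lower, with medians of 0.29 with Control 3 and 0.25 without it, and for mesothelium, tendon and type II alveolar genes the medians lay between -0.10 and 0.06. Of 8 white fat genes, 8 were lower in both, with medians of -2.29 and -2.46. Of 20 cardiac genes, 18 were lower in both, with medians of -1.03 and -1.21. Irradiated 1 carried most of the size: without it the medians were -0.18 and -0.37, and 15 and 16 of the 20 were still lower. Of 10 smooth muscle genes, 9 were lower in both, with medians of -0.44 and -0.55. Without Irradiated 1 the medians were -2.01 and -2.18 for white fat, -0.33 and -0.43 for smooth muscle, and -0.77 and -0.05 for the 34 muscle genes. No gene of the white fat, cardiac or smooth muscle lists passed the adjusted threshold. At an unadjusted limma p under 0.05 there were 7 of 8 white fat genes and 0 of 20 cardiac genes in both fits. For smooth muscle there were 5 of 10 with Control 3 and 7 of 10 without it, against 12.3% and 10.6% of all genes. Of those 7, 6 were lower and 1 was higher in the irradiated arrays. The part of these lists in the muscle values was not tested. Tnnc2 moved from -1.86 (SE 1.51) to 0.17 (SE 0.24). Acta1 moved from -1.51 (SE 0.87) to -0.38 (SE 0.27), and Tnni2 from -1.12 (SE 0.85) to -0.01 (SE 0.22). For these genes the standard error with Control 3 was several times that without it.

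**Figure D5:**
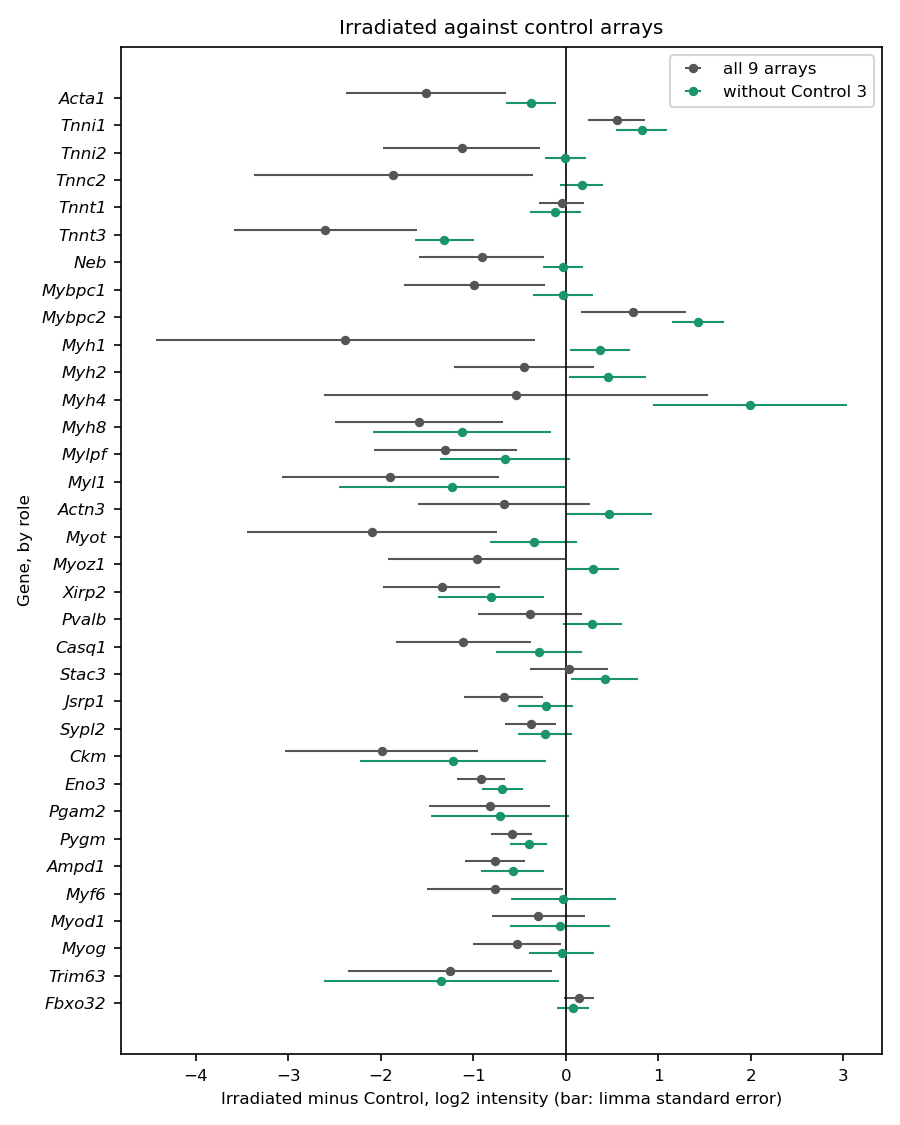
Irradiated minus Control for each skeletal muscle gene in log2 intensity, with all 9 arrays (grey) and without Control 3 (green). Points are limma estimates and bars are 1 standard error, and no gene passed the adjusted threshold in either fit. Bars are widest for Myh1 and Myh4 with all 9 arrays.

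Few genes had groups that did not overlap. With all 9 arrays, Tnnt3 and Eno3 were lower on every irradiated array than on every control, that is 2 of 34 against 1.76% of all genes, and 0 of 34 were higher throughout, against 3.4%. Against Control 1, 2 and 4 the same 2 genes were lower, against 2.86% of all genes, and 2 genes, Tnni1 and Mybpc2, were higher, against 4.6%. Tnni1 was dim on Control 1 and Irradiated 1, and with dim values at the array's floor its groups overlapped, which left Mybpc2, 1 of 34 against 4.31%. Mybpc2 had the lowest adjusted p of the list without Control 3, with a difference of 1.43 (SE 0.28, limma adjusted p = 0.148). With all 9 arrays its difference was 0.73 (SE 0.57, limma adjusted p = 0.773), and Control 3 was its highest array.

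Tnnt3, the fast troponin T, was -1.31 in the irradiated arrays without Control 3 (SE 0.32, limma adjusted p = 0.239) and -2.60 with it (SE 0.99, limma adjusted p = 0.386), and its second probe had a difference of -1.08 without Control 3. Eno3 had the lowest adjusted p with all 9 arrays, at a difference of -0.92 (SE 0.26, limma adjusted p = 0.216). Without Control 3 it was -0.69 (SE 0.22, limma adjusted p = 0.387). Tnni1 was 0.82 without Control 3 (SE 0.27, limma adjusted p = 0.404) and 0.55 with it (SE 0.31, limma adjusted p = 0.638). Its difference depended on the processing. Without Control 3 it was 0.21 with normexp (offset 50) and 0.20 in the authors' normalized values, and with all 9 arrays 0.12 and 0.17. With 75th percentile scaling it was 0.73 without Control 3 and 0.35 with all 9 arrays. The part of each processing choice was not tested.

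The estimates for fast and slow forms did not share one direction. Without Control 3, fast Tnnt3 was lower and fast Mybpc2 higher on all irradiated arrays, the estimate for slow Tnni1 was above 0, and Tnni2, Tnnt1 and Mybpc1 had differences of -0.01, -0.11 and -0.03. None of the 6 passed the threshold. Myh4 on Irradiated 5, at 7.52, stood above the 2.34 to 4.54 of the other irradiated arrays, and Myh1 on the same array was at 3.91 against 2.56 to 2.88. Myh4 was well above background on no other irradiated array, and Myh1 on Irradiated 4 only, where the level that counts as well above background was lower.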

How the data were processed

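Intensities of 34 skeletal muscle genes were taken from 9 one-colour arrays of mouse lung, 4 Control and 5 Irradiated by their labels. The authors deposited Feature Extraction output, in which each spot has a processed signal intensity corrected for local background, and a table of their own normalized intensity values. The methods state that probes over 1.4 times the local background were kept, quantile normalized and duplicate spots averaged, and name no test for these groups. The columns used are those of the green channel, while the labels name Cy5. Spot numbers were recovered from scan positions, and the rank correlation with the authors' table was then 1 on every array.

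Control and outlier spots were left out. Those 39303 of 39429 probes that exceeded 1.4 times background on 4 or more arrays were put on the log2 scale, quantile normalized and averaged over duplicate spots. Probes were named through a RefSeq table of GRCm38.p6, which gave a symbol for 26055. Irradiated minus Control was fitted with limma 3.58.1 in R 4.3.3 (lmFit and eBayes with an intensity trend), and p-values were adjusted by Benjamini-Hochberg across the kept probes, with a threshold of 0.05. Of these steps, only the limma fit was tested on simulated data. Shares of all genes count a gene by its brightest probe.

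The members, lists and named genes were chosen with earlier results of these data known. All 34 genes could be named. Values on every array were given for fast and slow pairs, for the brightest 2 of each role and for genes well above background on all 9 arrays. Other genes were given by ranges. Alternatives covered background correction, scaling, filters, the authors' table, probe choice, replicate and scan blocks, variance settings and each array left out. Scan pairs, inferred from the image edges, dim values at the floor for overlaps and ranks, second probes and lists without Irradiated 1 were added after the data were seen.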

Additional observations from a re-analysis of the deposited data

Results flagged for a closer look

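Each group of 4 or 5 arrays was checked for an array far from the others with Dixon's criterion at the conventional critical value. Of 94 groups checked, over the muscle genes and part of the lists, 26 (27.7%) had such an array, and chance flags about 5% of groups. Control 3 and Irradiated 1 were known to stand apart, so this share restates that and is not further evidence. Genes of one array are not independent of each other, so the flags of an array count as one pattern.

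Control 3 was far above the other controls for 10 of 34 muscle genes, compared with 1.62% of all genes. These were Acta1 at 14.67, Tnnc2 at 15.63, Tnnt3 at 14.30, Mybpc1 at 10.67, Mybpc2 at 10.74, Myh1 at 13.60, Myh4 at 12.33, Ckm at 12.01, Myoz1 at 10.87 and Neb at 10.26. With dim values at the array's floor, the mean of the thin filament genes was 12.37 there, that of the thick filament genes 11.28, of the Z-disc genes 9.84, of the fast fibre genes 11.70 and of the other skeletal muscle genes 8.90.

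Irradiated 1 was far below the other irradiated arrays for 6 of 34 muscle genes, compared with 1.07% of all genes. These were Myh8 at 9.42, Myl1 at 5.28, Ckm at 4.10, Pgam2 at 7.86, Trim63 at 2.27 and Xirp2 at 3.8. These flags used values as measured, and Myl1, Ckm, Trim63 and Xirp2 were not well above background there. At the array's floor of 5.17, Trim63 and Xirp2 do not reach the critical value of 0.71, so their flags rest on dim readings. Xirp2 at the floor was at least 1.84-fold lower. With dim values at the floor, the mean of Irradiated 1 was 8.62 for the energy genes, 9.25 for the slow fibre genes shared with heart and 7.66 for the cardiac genes. Ckm was flagged at both ends, high on Control 3 and low on Irradiated 1.

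Single flags concerned Myh1 at 3.91 on Irradiated 5, where it was still dim, and Neb at 7.21 on Irradiated 2, which lay within 1 log2 unit of the other irradiated arrays. The cause was not tested for any of these arrays.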

How the results depend on the processing

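No muscle gene passed the adjusted threshold in limma with or without Control 3 under any alternative run, with 2 to 7 genes at an unadjusted p under 0.05. Under the filter on all 9 arrays 30 genes were tested. The replicate block, which pairs arrays by number, also gave 0 genes in both fits, with 7 at an unadjusted p in each. Arrays of the same number correlated at 0.096, -0.018, -0.0086 and -0.15 in their deviations from group means, so the numbers do not pair them. The scan pair block, added after the data were seen, gave 0 genes in both. At an unadjusted p under 0.05 it gave 5 genes with all 9 arrays and 6 without Control 3. Of the 9 arrays, 8 had a scan partner. Tnnt3 with all 9 arrays had a limma p of 0.068 (adjusted 0.276) under this block. In the reported fit these were 0.025 and 0.386. The reported p-values and shares of all genes leave the scan pairs out of account. The cause of this shift was not tested.

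The count of 19 genes at least 4-fold higher on Control 3 became 9 at 16-fold, and 18 to 21 when Control 1, 2 or 4 was left out. It was 15 with normexp and 13 with the authors' table. The fast minus slow difference of 3.23 on Control 3 was 2.72 with normexp, 2.73 with the filter on all 9 arrays, 2.43 with the authors' table, 3.68 with dim values as measured and 4.25 with slow genes shared with heart added, and 3.02 to 3.35 when a control was left out. The cause of these shifts was not tested.

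Among the Irradiated minus Control differences of the named genes, 5 of 171 alternatives with all 9 arrays and 16 of 162 without Control 3 changed direction. With all 9 arrays these were all for Tnnt1, at -0.05 in the reported fit, and without Control 3 for Tnni2, Tnnt1 or Mybpc1, at -0.01, -0.11 and -0.03. Without Control 3, Mybpc1 became 0.055 with the mean of all probes, 0.0023 with the scan pair block and 0.035 with array weights. Tnni2 became 0.12 and 0.019 under the latter 2, and Tnnt1 0.066 with the scan pair block. With all 9 arrays Tnnt1 became 0.12 with the scan pair block and 0.045 with array weights. Leaving out each array gave -0.17 to 0.12 for Tnnt1 with all 9 arrays, and without Control 3 -0.28 to 0.21 for Tnni2, -0.30 to 0.10 for Tnnt1 and -0.21 to 0.17 for Mybpc1. Genes that were dim in a group, such as Myh1 and Myot, are limited by signal over background.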
